A study of Mus musculus with 12 samples.

Results

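CpGs that were methylated in 25 to 75% of the reads in every library of mouse oral tissue are described here. The rule took each autosomal cytosine with 10 or more reads in all 12 libraries, and 705 of 37218 such positions (1.89%) met the bounds. These positions make up 698 CpGs once both strands are joined. They are called member positions below. They were chosen by their percentages of methylated reads, so these levels are a description and carry no test. The libraries came from the soft tissue of the oral cavity (buccal mucosa, floor of the mouth and tissue on the hard palate, pooled for DNA extraction) of female B6C3F1/J mice, an F1 hybrid strain, which were 8 weeks old at the start. The 4 groups hold 3 libraries each. DMSO mice received the vehicle, and DBP mice received topical dibenzo[a,l]pyrene (DBP, also named dibenzo[def,p]chrysene), a tobacco carcinogen, at 24 nmol per dose. Doses were given on 3 days a week over 5 weeks, and the mice were killed 48 h after the final one. DBP_agent mice received the same DBP doses together with a chemopreventive agent, unnamed in the labels, and DBP_BR mice received DBP and the chemopreventive agent BR extract. Methylation was measured by enhanced reduced representation bisulfite sequencing (ERRBS), in which MspI cuts at CCGG and bisulfite turns unmethylated cytosines into bases read as T. No label says whether the libraries of a group came from separate animals or pools, so the spread between libraries may be technical. The p-values of the logistic regression below come from reads summed over each group. Unless scaling was left out, these reads were first multiplied up to the highest median coverage. The p-values then rest on more reads than were sequenced and overstate even the precision of read counting. They do not measure this spread.

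Most CpGs in a mammalian genome are either nearly free of methylation, as in CpG islands at promoters, or nearly fully methylated. An intermediate level can arise where one parental allele is methylated, as at the germline differentially methylated regions of imprinted genes, where cell types of a mixed tissue differ, or where copies of a repeated gene differ, as in ribosomal DNA with its silenced and active copies. Reads in these files carry no allele, cell or copy label, so these situations cannot be told apart here.

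To show what such CpGs look like, the sequences of 4 short runs, of the longest run outside chromosome 17, of a piece of ribosomal-type DNA on chromosome 17 and of 2 sites at imprinted genes are printed from the mm9 genome. All are on the plus strand, from 5′ to 3′, and capitals mark the CpGs that met the rule. The cg pairs in lower case are not member CpGs; inside the 5 runs outside chromosome 17 none of them had 10 or more reads in all 12 libraries, so they were not measured by the rule. The runs lie in introns of Dram1 (chr10:87812701-87812770), Anks1b (chr10:90181011-90181061), Ttc15 (chr12:29385690-29385769) and E2f3, where the gene Gm11365 overlaps (chr13:30033238-30033298). The longest lies between genes (chr11:108873029-108873290), 61062 bp from Axin2, and the chromosome 17 piece (chr17:39984417-39984588) is close to the pseudogene AY036118. The last 2 lie at the promoter of Grb10 (chr11:11937415-11937464) and upstream of Cdkn1c (chr7:150650089-150650138).
Dram1: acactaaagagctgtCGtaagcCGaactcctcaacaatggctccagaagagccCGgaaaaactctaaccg
Anks1b: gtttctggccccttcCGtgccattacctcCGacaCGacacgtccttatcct
Ttc15: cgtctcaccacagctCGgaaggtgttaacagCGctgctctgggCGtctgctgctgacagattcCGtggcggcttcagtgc
E2f3: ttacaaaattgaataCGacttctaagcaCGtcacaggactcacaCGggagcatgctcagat
near Axin2: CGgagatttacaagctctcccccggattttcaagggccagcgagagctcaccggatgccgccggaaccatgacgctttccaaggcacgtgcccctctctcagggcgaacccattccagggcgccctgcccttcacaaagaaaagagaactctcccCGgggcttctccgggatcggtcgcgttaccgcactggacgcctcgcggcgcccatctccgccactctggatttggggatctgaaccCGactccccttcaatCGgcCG
AY036118 stretch: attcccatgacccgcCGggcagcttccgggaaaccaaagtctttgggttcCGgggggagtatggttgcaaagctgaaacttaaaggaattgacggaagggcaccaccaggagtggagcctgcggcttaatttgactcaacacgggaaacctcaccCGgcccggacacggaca
Grb10: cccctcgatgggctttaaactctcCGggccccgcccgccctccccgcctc
Cdkn1c: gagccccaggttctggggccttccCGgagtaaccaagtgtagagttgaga

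Depth differed between the groups. The libraries held 3287367 to 7974299 CpG calls in DMSO and DBP and 16908728 to 78889043 in DBP_agent and DBP_BR. The median reads per member position ran from 18 in DMSO 3 to 138 in DBP_agent 1. DBP_BR 1 stood apart: it had the most calls but a median of 51 reads at these positions, and 36.95% of the positions at 25 to 75% over the pooled libraries fell outside the bounds in it, against 16.59 to 30.89% in the others. A value of 50% has an exact (Clopper-Pearson) 95% interval of 18.7 to 81.3% at 10 reads, 33.8 to 66.2% at 40 reads and 40.7 to 59.3% at 120 reads. Such intervals cover counting error only, since the reads carried no molecular identifiers.

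Few of the CpGs that were intermediately methylated on average were so in every library. Of the 37218 covered positions, 18176 (48.84%) were at 25% or less in every library, 4631 (12.44%) were at 75% or more in every library, and 6636 (17.83%) were at 25 to 75% over the pooled libraries. Of these 6636, the 705 that met the bounds in all 12 libraries make up 10.62%. The bounds were met in 11 libraries by 1099 positions, in 10 by 1141 and in 9 by 1003. Among the 1099, the outlying library was DBP_BR 1 for 237 and DBP_agent 3 for 145, and each of the others took 35 to 114. Leaving out a library also raised the number of covered positions. Without DBP_BR 1 the rule chose 1150 of 51728 covered positions (2.22%). Without DMSO 3, the shallowest library, it chose 1145 of 59732 (1.92%), beside 1.89% with all 12.

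**Figure D1:**
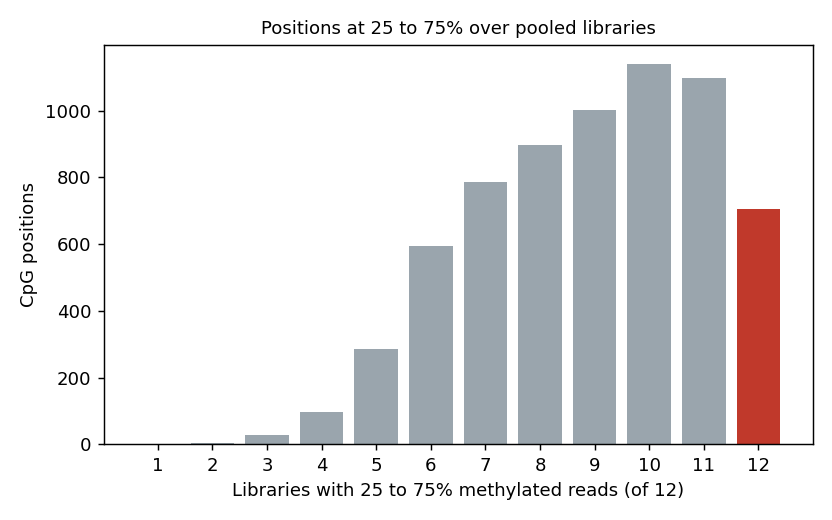
Number of CpG positions (vertical axis) with 25 to 75% methylated reads in a given number of the 12 libraries (horizontal axis), for the 6636 autosomal positions at 25 to 75% over the pooled libraries. The red bar holds the 705 positions that met the bounds in all 12, and the highest bar is at 10 libraries, with 1141.

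The bound was close for many of them. The value nearest to 25 or 75% lay a median of 3.0 points inside the bounds, and 473 of the 705 (67.09%) had a library within 5 points of a bound. In 86 positions a library was at exactly 25 or 75%. The 1099 positions just outside missed by a median of 6.08 points in their outlying library, and 419 of them by less than 5 points. Read counting alone removes positions: a CpG at 50% with 10 reads in each library stays at 3 to 7 methylated reads in all 12 with a chance of 24.91%, and at 30 reads the chance of meeting the bounds is 93.91%. The X chromosome was not part of the rule. There, 33 of 852 covered positions (3.87%) met the same bounds.

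The positions centred on 50%. Their pooled methylation had a median of 50.0% (range 30.1 to 69.5%), and 569 (80.71%) lay between 40 and 60%. The median over the positions was 50.0% in DMSO 1, 49.0% in DMSO 2 and 49.4% in DMSO 3, then 52.5% in DBP 1 and 50.0% in DBP 2 and DBP 3. It was 52.6, 50.0 and 48.8% in DBP_agent 1 to 3 and 50.0, 48.0 and 46.6% in DBP_BR 1 to 3. The groups overlapped, with means of these medians of 49.5% ± 0.51 in DMSO, 50.8% ± 1.44 in DBP, 50.5% ± 1.96 in DBP_agent and 48.2% ± 1.71 in DBP_BR (SD, n = 3 each).

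**Figure D2:**
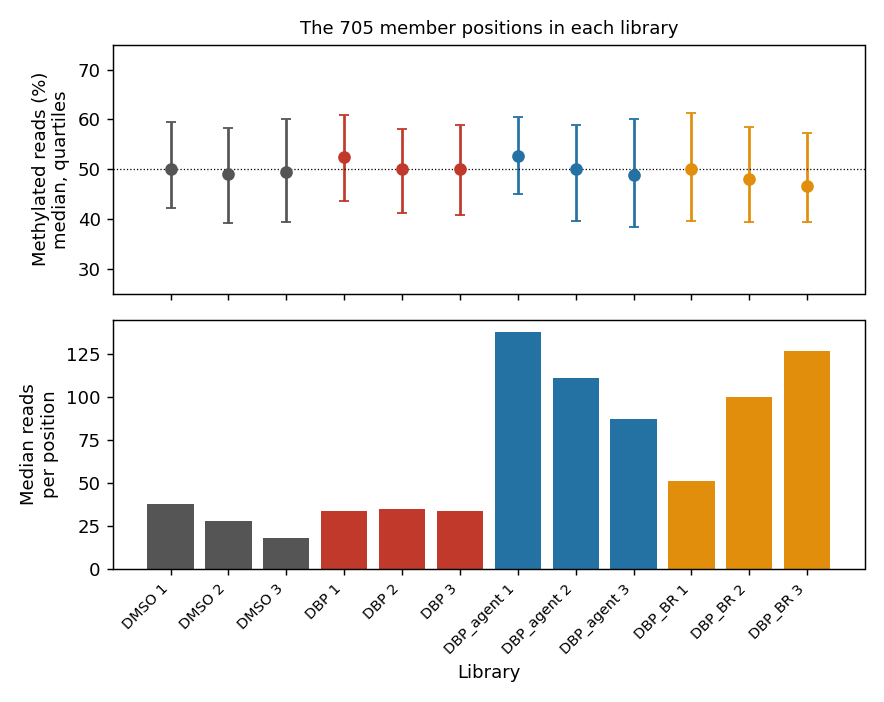
Upper panel: methylated reads (%) of the 705 positions in each library, as median with quartiles. Lower panel: median reads per position. All medians lie between 46.6 and 52.6%, while depth runs from 18 to 138 reads.

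Member positions stayed within the bounds but did not keep 1 value. The SD over the 12 libraries had a median of 10.2 points, and only 258 positions (36.60%) stayed within a range of 30 points or less. The chi-square statistic of equal methylation divided by its degrees of freedom, which is near 1 where libraries differ by read counting alone, had a median of 2.73, and it was over 2 in 503 positions and 1 or less in 30. The bounds limit this spread from above. In the shallow groups the median SD within a group was no larger than the binomial SD of the reads, at 8.52 against 9.94 points in DMSO and 8.15 against 8.67 in DBP. In the deeper groups it was larger, at 8.84 against 4.86 points in DBP_agent and 9.20 against 5.88 in DBP_BR. The median of an SD taken over 3 libraries tends to lie below the true SD. Whether the shallow groups vary by read counting alone was therefore not tested.

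Libraries that had no part in the choice give a measure independent of the rule. When the rule was applied to DMSO and DBP alone, it chose 2611 positions, of which 1975 had 10 or more reads in the 6 libraries of the other groups. Of these 1975, 705 (35.7%), by construction the member positions, were within the bounds in all 6 of those libraries, against 13.16% of the positions intermediate over the pooled reads that were not chosen. Over the pooled reads of those 6 libraries, 97.47% of the chosen lay at 25 to 75%. In the other direction, 5975 positions were chosen in DBP_agent and DBP_BR, 1357 were covered in DMSO and DBP, and 705 (51.95%) were within the bounds in all 6, against 23.1% of those not chosen.

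The member positions lay less often at promoters and in CpG-dense sequence than all covered positions, of which 54.16% lay at promoters. Within 1000 bp of the start of a protein-coding gene lay 23.83% of them, against 82.83% of the positions unmethylated in every library and 8.21% of those highly methylated in every library. A further 11.21% lay in exons, 27.09% in introns and 37.87% between genes. These shares were 11.84, 15.22 and 18.78% for all covered positions and 24.81, 30.19 and 36.80% for highly methylated positions. The median distance to the nearest start was 9560 bp, between 225 bp for unmethylated and 18004 bp for highly methylated positions. For all covered positions it was 676.5 bp. Windows of 200 bp around the member positions held a median of 5 CpGs and 55.5% GC. This was close to the highly methylated class (5 CpGs, 53.5%) and below the unmethylated class (19 CpGs, 67.5%) and all covered positions (13 CpGs, 62%). The cytosine stood in a CCGG, the MspI site itself, in 63.83%, against 55.02% of highly methylated and 0.457% of unmethylated positions. Of all covered positions 29.70% did. What part the cut site has in these levels was not tested. Positions at 25 to 75% over the pooled libraries that were not chosen lay nearer to promoters (33.72%; median distance 4891 bp) and stood in a CCGG in 61.51%.

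Covered neighbours that did not meet the rule were often not intermediate. Neighbours that met the rule are left out of these neighbour counts. Of the 705 positions, 155 had no other covered CpG within 100 bp. Another 517 had a covered neighbour that did not meet the rule, and the mean of these neighbours was at 25 to 75% for 270 (52.22%), at 20% or less for 167 (32.3%) and at 80% or more for 51 (9.87%). In pairs of a member and such a neighbour, the share of neighbours at 25 to 75% was 43.46% at 2 to 10 bp and 39.62% at 11 to 25 bp. It was 34.04% at 26 to 50 bp and 10.53% of only 95 pairs at 51 to 100 bp. Of all covered positions, 17.83% were at 25 to 75% over the pooled libraries. CpGs within 50 bp can lie on the same read. The opposite strand of the same CpG, a separate set of reads, was read in some library for 308 positions and was itself chosen for 14. Of the 67 others with 100 or more reads summed over the libraries, 53 (79.1%) were at 25 to 75%, 12 were below and 2 above. The same share was 66.48% for positions at 25 to 75% over the pooled libraries that were not chosen, 22.58% for unmethylated and 0% (0 of 185) for highly methylated positions.

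Runs of member CpGs were few and short. With gaps of at most 200 bp, the 698 CpGs formed 625 runs, of which 574 were a single CpG and 36 a pair. Only 15 runs held 3 or more CpGs (52 CpGs in all): 11 of 3, 2 of 4, 1 of 5 and 1 of 6. Of these 15, 9 spanned 50 bp or less, the length of 1 read, so that their CpGs share reads and are not separate measurements. The other 6 were 5 runs at AY036118 and the run near Axin2. Leaving out DBP_BR 1, which raised the covered positions to 51728, gave 24 such runs. Removing the top 0.1% of positions by coverage in each library gave 8.

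The run with the least spread outside chromosome 17 lay between genes at chr11:108873029-108873290, with Axin2, a negative regulator of Wnt signalling, as the nearest coding gene. Over its 5 CpGs the pooled reads were methylated at 41.4, 41.2 and 46.8% in DMSO 1 to 3, 43.6, 42.6 and 35.6% in DBP 1 to 3, 43.1, 43.2 and 42.1% in DBP_agent 1 to 3 and 44.1, 45.5 and 31.7% in DBP_BR 1 to 3. Only DBP 3 and DBP_BR 3 were below 40%, and the groups overlapped. Its depth was 3.797 times the median covered position, the highest of the 10 runs outside chromosome 17, and 1 of its CpGs stood at 7.90 times. Whether it is a copy of ribosomal DNA, so that reads of other copies align to it, was not tested, and its values may not belong to this place alone.

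In Anks1b, which encodes a postsynaptic scaffold protein, the 3 CpGs at chr10:90181026-90181046 were at 55.6, 51.1 and 49.3% in DMSO 1 to 3, 47.3, 54.6 and 45.8% in DBP, 56.4, 39.2 and 45.4% in DBP_agent and 42.7, 52.0 and 55.5% in DBP_BR. Their SD was 5.58 points, the lowest of the runs that span a single read. The 3 CpGs in Dram1, a lysosomal protein of autophagy, at chr10:87812716-87812755, ran from 35.3% in DBP_agent 3 to 59.8% in DBP 2. The 4 CpGs in Ttc15, a subunit of the TRAPP vesicle-tethering complex, at chr12:29385705-29385754, ran from 38.5% in DBP_agent 3 to 69.5% in DBP_BR 2. The E2f3 run (a cell cycle transcription factor; chr13:30033253-30033283) had the largest SD of the 15, 12.2 points, from 36.04% in DBP_BR 2 to 72.2% in DBP_BR 1, so libraries of 1 group held both ends.

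The other 5 lay in exons of Kcnt1, a sodium-activated potassium channel (chr2:25762259-25762288, pooled 50.7%), and Nav2 (chr7:56814148-56814183, 46.2%), at the promoter of the beta-spectrin gene Spnb5 (chr2:119910998-119911034, 43.7%), in an intron of the myosin light chain kinase gene Mylk (chr16:34854136-34854164, 52.1%) and 12066 bp from Fam81a (chr9:69925031-69925071, 45.8%). Their SDs over the libraries were 9.12 to 11.5 points, and in none of these 5 were the libraries of 1 group all above those of the 3 others.

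**Figure D3:**
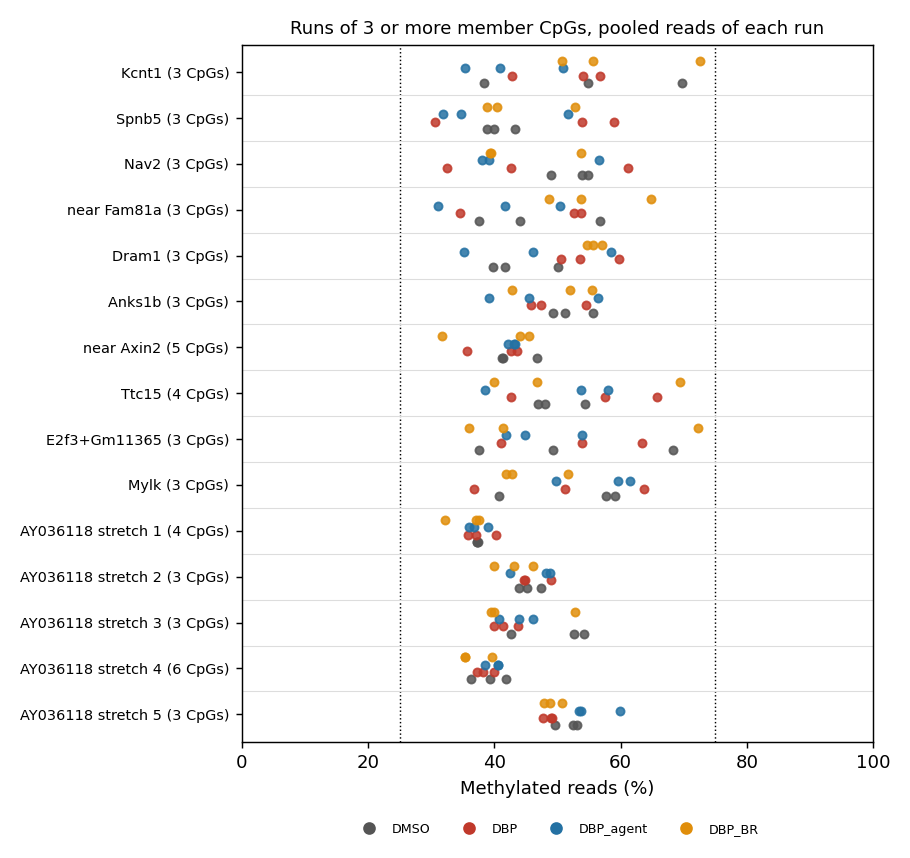
Methylated reads (%), pooled over the CpGs of each run of 3 or more, with 1 point per library coloured by group. Dotted lines mark the bounds of 25 and 75%. The runs of the AY036118 stretch have SDs of 1.94 to 5.46 points, and the E2f3 run spreads from 36.04 to 72.2%.

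Chromosome 17 held 73 of the 705 positions, 4.01% of its covered positions, against 1.27 to 2.41% on the other autosomes. Without 1 stretch it was 2.38% (38 of 1596). The stretch was singled out after its values were seen. Within 10000 bp of the pseudogene AY036118 (chr17:39985048-39985772) 224 positions were covered, 75 were at 25 to 75% over the pooled libraries, 35 met the rule, 114 were unmethylated in every library and 0 were highly methylated. In RefSeq the neighbour of AY036118 is Rn18s-rs5, an 18S ribosomal RNA-related pseudogene. Ribosomal RNA genes lie in repeats of very many copies, which a reference genome holds only in part, so reads of many copies may align to 1 place.

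Depth and evenness set this stretch apart. Its 35 positions had a median depth of 10.2 times the median covered position (range 1.64 to 98.7), and 24 of the 30 member positions over 5 times lay in it. The pooled reads of the 35 were methylated at 43.0, 41.5 and 43.4% in DMSO 1 to 3, 44.0, 41.0 and 41.6% in DBP 1 to 3, 44.8, 41.4 and 43.0% in DBP_agent 1 to 3 and 40.4, 42.8 and 37.6% in DBP_BR 1 to 3. DBP_BR 3 was the lowest and DBP_agent 1 the highest, and the groups overlapped. The median SD was 4.32 points, against 10.4 for the other 670 positions, yet with so many reads the chi-square over its degrees of freedom was 5.41 against 2.70. Without the stretch, the rule left 670 positions and 10 runs. Outside it, the deepest position lay in Filip1l and 2610528E23Rik on chromosome 16 (position 57391705), at 30.4 times the median depth with 33.4% methylated and an SD of 2.75 points, and its 31 bases occur 3 times in the genome. Identical 31-base copies were otherwise rare, at 2.27% of the 705 positions against 2.16% of all covered positions.

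**Figure D4:**
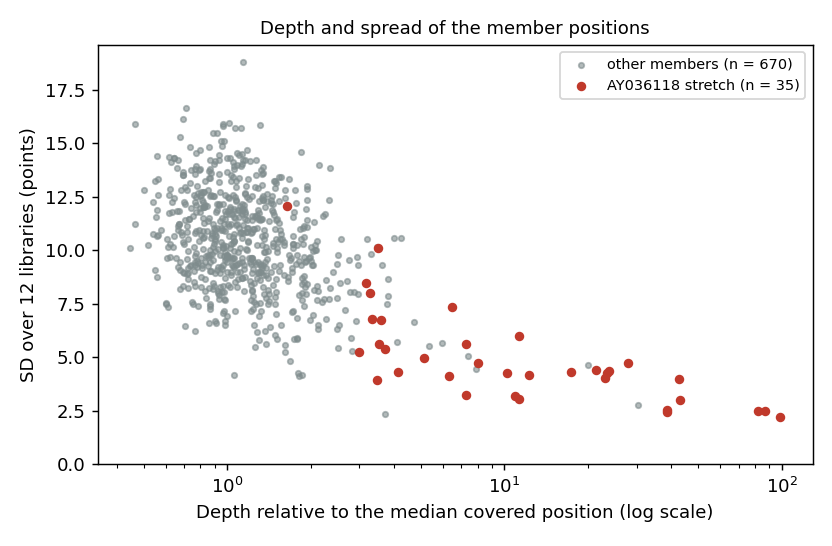
Each point is 1 of the 705 positions: depth relative to the median covered position (log scale) against the SD of methylated reads over the 12 libraries. The 35 positions of the AY036118 stretch (red) have a median SD of 4.32 points and the 670 others (grey) 10.4.

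CpGs at imprinted genes were more often intermediate on average than all covered CpGs, while the share that met the rule was close to that of all. Imprinted genes are expressed from 1 parental allele, and their control regions carry methylation from the egg or the sperm. Within 5000 bp of the 73 imprinted genes in the annotation (of 79 listed), 166 positions were covered. Of these, 62 (37.35%) were at 25 to 75% over the pooled libraries, beside 17.83% of all covered positions. For genes with a germline differentially methylated region it was 43 of 91 (47.25%), and for the other imprinted genes 19 of 75 (25.33%). Of the 166, 4 (2.41%, beside 1.89% of all) met the bounds in every library, with 2 in each list. These 4 make up 6.45% of the 62, beside 10.62% of all positions at 25 to 75% over the pooled libraries. By list this share was 4.65% for germline regions and 10.53% for the other imprinted genes. The shares of covered positions that met the rule depended on the bounds. At 20 to 80% they were 9.64% beside 4.12%, and at 30 to 70% 0.602% beside 0.623%. These counts carry no test.

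The position at Grb10, an adaptor that restrains growth factor signalling, lay on the minus strand at chromosome 11 position 11937440, 1246 bp from the gene's start. It was methylated at 47.9, 45.5 and 47.8% in DMSO 1 to 3, 45.3, 35.3 and 52.0% in DBP, 45.3, 40.9 and 41.5% in DBP_agent and 30.9, 30.9 and 40.1% in DBP_BR, with 22 or more reads in each. DBP_BR 1 and 2 were the lowest libraries, and DBP_BR 3 lay above DBP 2. The position in an intron of Kcnq1, a potassium channel gene whose domain is imprinted (chromosome 7 position 150340861), ran from 37.3% in DBP_agent 2 through a median of 57.4% to 72.7% in DBP 1. The one 3159 bp upstream of Cdkn1c, the growth-restraining CDK inhibitor of the same domain (position 150650114), ran from 32.2 to 71.4%, with a median of 46.8%. DBP 3, with DBP_BR 1, gave the low end and DBP 1 the high end. The one in an intron of Ddc, the aromatic amino acid decarboxylase gene beside Grb10 (chromosome 11 position 11732038), ran from 27.5% in DBP 1 to 57.1% in DMSO 2, with a median of 43.9%.

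The imprinted gene with the most CpGs at 25 to 75% over the pooled libraries was Gnas, with 15 of 26 covered positions and 0 that met the rule. It was chosen here after its values were seen. Of these, 13 lie near Nespas, an antisense transcript of the Gnas domain, where 13 of 14 covered positions were at 25 to 75% over the pooled libraries, and each met the bounds in 6 to 11 libraries. Their pooled reads were methylated at 43.5, 41.7 and 40.5% in DMSO 1 to 3, 43.2, 37.1 and 60.7% in DBP 1 to 3, 42.4, 33.2 and 50.9% in DBP_agent 1 to 3 and 25.1, 30.01 and 40.8% in DBP_BR 1 to 3. DBP 3 was the highest and DBP_BR 1 the lowest, and the 3 DMSO libraries lay within the range of DBP. The chi-square over its degrees of freedom had a median of 5.48. At Trappc9, whose intron holds the imprinted Peg13, 10 of 13 positions were at 25 to 75% (libraries 30.2 to 58.9%) with 0 that met the rule, and at Grb10 8 of 11 (19.4 to 55.5%) with 1.

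**Figure D5:**
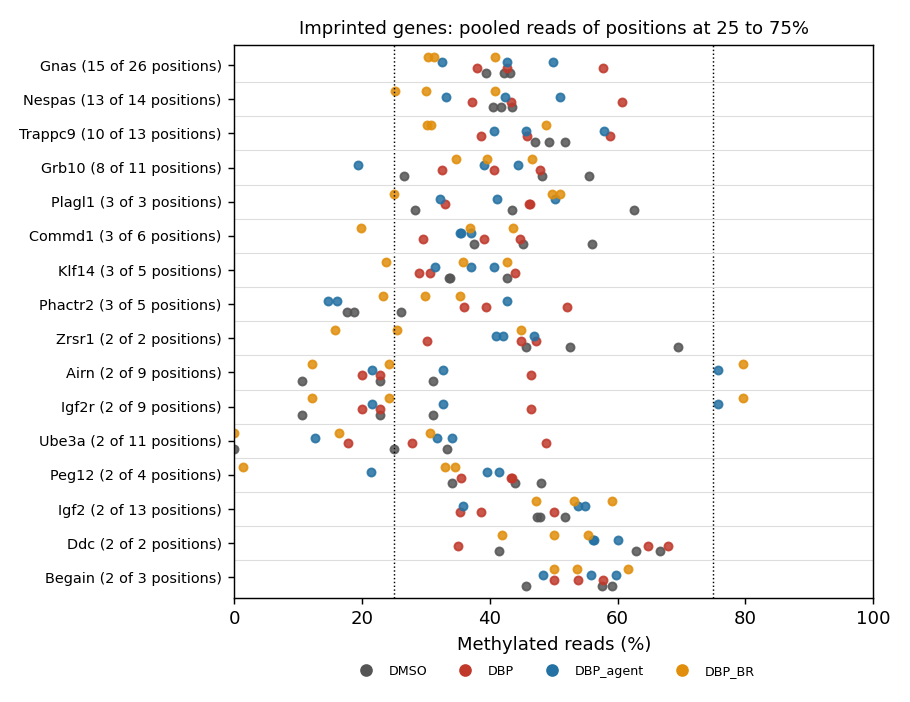
Methylated reads (%) in each library, pooled over the positions of an imprinted gene that were at 25 to 75% over all libraries, for the 16 genes with 2 or more such positions. Points are coloured by group and dotted lines mark 25 and 75%. Gnas and Nespas share positions, as do Airn and Igf2r, and Zrsr1 and Commd1, and libraries of Nespas run from 25.1 to 60.7%.

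Member positions at genes that mark the cell types of oral tissue were counted beside those of all genes. Over all 7 lists 269 positions were covered, 56 (20.82%) were at 25 to 75% over the pooled libraries and 7 (2.6%) met the rule, beside 17.83% and 1.89% of all positions. By list, the rule took 2 of 60 covered positions for squamous epithelium, 2 of 66 for skeletal muscle, 3 of 37 for immune cells, and 0 of 34 for fibroblasts, 0 of 52 for endothelium, 0 of 9 for nerve and glia and 0 of 11 for salivary gland and fat. The share at 25 to 75% over the pooled libraries was highest for skeletal muscle, at 20 of 66 (30.3%). Of these 20, however, 9 were assigned to Mylpf and lie together at chromosome 7 positions 134358186 to 134358392. That is beyond the end of Mylpf (134357812), so this share leans on 1 place outside a muscle gene. What part the makeup of the tissue has in any of these levels was not tested.

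The 2 epithelial positions lay in an exon of Krt4, a keratin of mucosal epithelium, with a median of 47.1% (30 to 70.8%), and 3397 bp from the start of Sfn, which encodes 14-3-3 sigma, with 43.6% (27.3 to 65%). The immune positions were 2 in Runx3, a transcription factor of lymphocytes that other cells also use, with medians of 47.0% (25.9 to 63.6%) and 33.6% (25 to 52.9%), and 1 that lay 2024 bp upstream of Itgam, the myeloid integrin CD11b, with 40.5% (27.3 to 68%). For muscle, 1 lay in an intron of Pax7, the factor of satellite cells, with 53.4% (30.99 to 66.5%). The other was assigned to Mylpf, a fast muscle myosin light chain, with 55.1% (30.8 to 75%), but it lies at the promoter of the neighbouring gene Sept1. Of the 10 covered positions near Mylpf, 9 were at 25 to 75% over the pooled libraries.

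Groups were then described at the member CpGs, for DBP against the vehicle and for each agent given with DBP. Each CpG of the whole table was fitted by logistic regression (likelihood ratio test, Benjamini-Hochberg q over all CpGs tested) and called at q under 0.01 with a difference over 10 points. The rule used these same libraries and took out CpGs with large differences beforehand, so the member counts are a description, and nothing is read from the few calls over 25 points. All 3 comparisons use the DBP libraries.

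A choice that does not use the compared libraries was added after the data were seen. For it, the same rule was applied only to the 6 libraries outside each comparison. For DBP against DMSO it gave 1358 CpGs tested, of which 3 (0.221%) were called, 2 higher and 1 lower, beside 0.106% of all and 0.302% of the other CpGs at 25 to 75%. For DBP_agent against DBP, 208 of 1340 (15.52%) were called, 90 higher and 118 lower, beside 5.32% of all and 12.52% of the other CpGs at 25 to 75%. For DBP_BR against DBP, 449 of 1735 (25.88%) were called, 163 higher and 286 lower, beside 8.64% and 21.87%. Without scaling of coverage these calls were 1 of 1358, 45 of 1340 and 107 of 1735, beside 0.0466, 1.18 and 1.84% of all CpGs. edgeR called 0, 1 and 0, with 43, 27 and 74 at an unadjusted p under 0.05 (3.17, 2.02 and 4.27%, beside 5.47, 7.02 and 7.30% of all).

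DBP against DMSO called 1 of the 675 member CpGs tested (0.148%), beside 0.106% of all 53618 CpGs. With a difference over 25 points it called 0, beside 0.0578%, from which nothing is read, since the rule limits such differences. At an unadjusted p under 0.05 there were 71 (10.52%), beside 10.9% of all. The groups did not overlap in 67 (9.93%), beside 5.6% of all and 10.15% of the 25 to 75% CpGs that were not members. The median difference was 0.22 points (quartiles -4.52 to 6.08). The called CpG lies in Ap4m1, a subunit of the AP-4 adaptor complex, at chr5:138619592-138619593. It was at 66.3, 69.8 and 65.4% in DMSO 1 to 3 and at 54.2, 50.5 and 35.4% in DBP 1 to 3. The groups did not overlap, and the fitted difference was -19.2 points. DBP_agent stood at 67.6, 56.8 and 62.6% and DBP_BR at 72.7, 61.8 and 57.5%, above every DBP library. The call was lost with coverage not scaled, with Fisher's exact test, with edgeR and without DMSO 2, DMSO 3, DBP 2 or DBP 3, each of which left 0 member CpGs called. edgeR found 7 of the 675 at an unadjusted p under 0.05, beside 2932 of all 53618 CpGs. Nothing is read from this low count, since the rule limits such differences.

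The next 4 by p were not called. A CpG 98 bp from Pik3r2, a regulatory subunit of PI3 kinase (chr8:73300710-73300711), was at 50.9, 60 and 54.1% in DMSO and 39.5, 34.9 and 37.0% in DBP. One 1631 bp from Mrps10 (chr17:47519997-47519998) was at 48.6, 66.7 and 74.1% in DMSO and 32.6, 38.5 and 42.4% in DBP. In both the groups did not overlap. The third lies in the AY036118 stretch at chr17:39980648-39980649, with a fitted difference of 20.4 points. Over both strands as deposited, DMSO had a mean of 37.5% ± 0.95 and DBP one of 42.4% ± 4.01 (SD, n = 3), since the limit on the top 0.1% of coverage had removed the deeper plus strand before the fit in every library but DMSO 3. The fourth, on chromosome 18, had a fitted difference of 18.1 points, where DMSO had a mean of 35.4% ± 11.5 and DBP one of 56.1% ± 4.31 (SD, n = 3).

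DBP_agent against DBP called 63 of 650 member CpGs (9.69%), 33 higher and 30 lower, beside 5.32% of all 127381 CpGs and 12.78% of the 25 to 75% CpGs that were not members. A difference over 25 points was called in 0, beside 0.754% of all. Nothing is read from this 0, since the rule had taken out CpGs with large differences beforehand. Of the members, 186 (28.62%) had an unadjusted p under 0.05, beside 26.9% of all. The groups did not overlap in 35 of the 63 called, and in 64 of all 650 (9.85%), beside 5.55% of all CpGs tested and 9.89% of the 25 to 75% CpGs that were not members. In Wdfy1 (chr1:79757599-79757600), which had the smallest p of the members, DBP 1 to 3 were at 42.7, 36.8 and 39.4% and DBP_agent 1 to 3 at 57.8, 58.9 and 55.6%. DMSO libraries lay at 46.4, 30.4 and 53.3% and so on both sides of DBP. The next were CpGs in Ccdc23 (22.3 points higher), in Apaf1, the core of the apoptosome (-24.1 points), in Lrba (-22.2 points) and 42615 bp from Lmx1b (-16.7 points). In Ccdc23 and Apaf1 the groups overlapped, with DBP 3 on the side of DBP_agent.

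DBP_BR against DBP called 112 of 642 member CpGs (17.45%), 39 higher and 73 lower, beside 8.64% of all 104443 CpGs and 22.37% of the 25 to 75% CpGs that were not members. The groups did not overlap in 44 of the 112 called, and in 74 of all 642 (11.53%), beside 5.74% of all CpGs tested and 10.44% of the 25 to 75% CpGs that were not members. An unadjusted p under 0.05 was found for 261 (40.65%), beside 32.4% of all. Over 25 points 5 of the 642 were called (0.779%), beside 0.999% of all. The rule had taken out CpGs with large differences in these same libraries, so nothing is read from their number, direction or separation. They lay in Acot11, BC057022 and Iffo2, 8206 bp from Pnpla5 and 2375 bp from E2f2, and all 5 were lower without overlap. In Acot11, an acyl-CoA thioesterase gene (chr4:106472834-106472835), DBP 1 to 3 were at 71.4, 70.6 and 66.7% and DBP_BR 1 to 3 at 35.4, 29.2 and 43.6%. DMSO lay below DBP, at 48.2, 53.9 and 40%, and overlapped DBP_BR. The CpG near Pnpla5 (chr15:83961811-83961812) was at 57.8, 66.7 and 66.7% in DBP, 33.3, 29.4 and 29.2% in DBP_BR and 66.7, 61.1 and 65.0% in DMSO. The smallest p belonged to 2310004N24Rik, where the groups overlapped (DBP 40 to 41.5%; DBP_BR 30.2, 67.2 and 64.2%), and the fifth to Espn, an actin-bundling protein gene (19.9 points higher).

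Both counts rest on how reads were weighed. Scaling multiplied the reads of each DBP library by 1.94 in the comparison with DBP_agent and by 2.56 in that with DBP_BR. Without it, 6 and 10 member CpGs were called in place of 63 and 112, beside 1502 and 1921 of all CpGs in place of 6778 and 9019. edgeR, which fits the spread between libraries, called 0 in each, beside 6 of all 127381 and 23 of all 104443 CpGs. It found 0 and 7 members at an unadjusted p under 0.05, beside 8936 and 7627 of all CpGs. The rule had taken out CpGs with large differences beforehand, so nothing is read from these low counts. Without DBP_BR 1, 57 of 646 were called in place of 112 of 642, beside 6938 of all 124398 CpGs in place of 9019 of 104443. Depth moved with these groups too, at a median of 34 reads per member in DBP, 112 in DBP_agent and 98 in DBP_BR, and its part in the calls was not tested beyond these settings.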

How the data were processed

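DNA methylation was measured by ERRBS in 12 libraries (4 groups of 3). Per the labels and the study's methods, the authors cut DNA with MspI, trimmed 50 bp single reads with Trim Galore 0.3.3 and aligned them to mm9 with Bismark 0.10.1. The deposited files give methylated and unmethylated read counts per CpG cytosine and strand, and the percent methylated, which the authors derived from those counts. All 5202461 positions are CpG cytosines in the mm9 reference used here (GENCODE vM1 genes). The members and gene lists were chosen with earlier results of these data known. Named were every run of 3 or more member CpGs, every listed gene with a member and, per comparison, the 5 member CpGs with the smallest p and every call; where 63 and 112 were called, only the 5 with the smallest p and those over 25 points are named. For comparisons, positions with fewer than 10 reads or in the top 0.1% of coverage were left out of each library, counts were multiplied up to the highest median coverage, both strands were summed, and CpGs in all 6 libraries were tested by logistic regression (likelihood ratio). Alternatives were no scaling, no upper limit, a replicate block, edgeR 4.0.16 (R 4.3.3), Fisher's exact test, other read minimums and bounds, leaving out each library and, added after seeing the data, a choice of CpGs in the libraries outside a comparison. On simulated counts for DBP against DMSO (53618 CpGs), logistic regression recovered 184 of 200 changes of 45 points with 0 false calls. Those counts had no spread beyond read counting. Python 3.11.15, NumPy 2.4.6, pandas 2.3.3 and SciPy 1.17.1 were used.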

Additional observations from a re-analysis of the deposited data

How the results depend on the processing

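The number of positions depended most on the rule. In place of 705 (1.89% of the covered positions), it was 222 at 20 reads (3.13%) and 1238 at 5 reads (1.245%). It was 232 at bounds of 30 to 70% (0.623%) and 1535 at 20 to 80% (4.12%). Leaving out 1 library gave 740 to 1150, from 740 of 37218 covered positions (1.99%) without DBP_agent 1 to 1150 of 51728 (2.22%) without DBP_BR 1. Runs of 3 or more (15) became 5 at 30 to 70%, 41 at 20 to 80% and 8 without the top 0.1% of coverage, and 15 to 24 without 1 library. Positions at imprinted genes (4 of 166, 2.41% beside 1.89% of all) became 7 at 5 reads (1.515% beside 1.245%) and 3 of 23 at 20 reads (13.04% beside 3.13%). They became 1 at 30 to 70% (0.602% beside 0.623%) and 16 at 20 to 80% (9.64% beside 4.12%). With strands merged before the rule there were 8 (4.44% beside 2.11%). Without 1 library there were 4 to 8, with 8 without DMSO 3 (2.78% beside 1.92%) and 7 without DBP_agent 2 or DBP_BR 2.

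For DBP against DMSO, 1 member CpG was called. The number called was 0 without scaling, with edgeR and with Fisher's exact test. It was 3 of 244 at 20 reads (beside 52 of all 12671) and 6 of 675 at q under 0.05 (beside 339 of all 53618). Without 1 library it was 0 to 3, with 3 without DMSO 1. DBP_agent against DBP (63 of 650) gave 6 without scaling, 0 with edgeR and 105 at q under 0.05 (beside 10806 of all 127381). At 20 reads it gave 44 of 470, and without 1 library 43 to 71. DBP_BR against DBP (112 of 642) gave 10 without scaling, 0 with edgeR and 74 of 421 at 20 reads. Without 1 library it gave 57 to 127, with 57 of 646 without DBP_BR 1 (beside 6938 of all 124398). Over all 53618, 127381 and 104443 CpGs tested, calls without scaling were 25, 1502 and 1921 in place of 57, 6778 and 9019. Of the same CpGs edgeR called 0, 6 and 23. At 20 reads 1994 of 42015 CpGs were called for DBP_agent against DBP and 2404 of 31277 for DBP_BR against DBP. With CpGs chosen by the rule in the libraries outside each comparison, 3 of 1358, 208 of 1340 and 449 of 1735 were called. The cause of these differences was not tested.

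The replicate numbers gave no sign of a pairing. Over all CpGs tested, the correlations of same-numbered libraries' deviations from their group means lay between -0.020 and 0.011. Read counting adds to these deviations, so a weak pairing could be missed. With the replicate block the member calls were 1, 74 and 90. Over all CpGs it called 95, 7481 and 8494 in place of 57, 6778 and 9019. In the labels, such libraries share only a number.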
